A study of Homo sapiens with 60 samples.

Results

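The genes described here are 42 human genes that carry out or govern DNA replication, the copying of the genome in S phase of the cell cycle. They were taken from a list of gene symbols, matched to the count table by Ensembl gene identifier, and kept where at least 3 libraries held 10 or more counts. All 42 met that minimum, of 16294 genes that met it among the 60675 in the table. The list was drawn up by function, with earlier results of these data known, so that counts over its genes are a description and no independent evidence of a direction. The genes fall into 7 role groups: origin licensing (11 genes), helicase activation (6), polymerases and primase (6), clamp, loader and lagging strand (9), nucleotide supply (4), chromatin behind the fork (3), and fork checkpoint with CDT1 turnover (3).

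The RNA came from HepG2, an established human hepatocellular carcinoma line, after 24 h of treatment. Wortmannin, an inhibitor of phosphoinositide 3-kinases and the positive control of the study, was given at 10 µM. Water extracts of 6 medicinal herbs were given at 20, 100 and 500 µg/mL. The labels name the herbs as Paeoniae Radix (peony), Angelicae Gigantis Radix (angelica), Panax Ginseng, Glycyrrhizae Radix (licorice root), Atractylodis Rhizoma (Atractylodes) and Poria Cocos, and the short names are used here. The vehicle cells received 0.1% DMSO per the sample labels, whereas the series text gives 2%, and the labels of the treated samples give no DMSO content. The series text also states that an extract with an IC20 below the top dose was diluted from its IC20 instead, and the labels of all extract samples used here give the 3 doses named above. Each of the 20 groups has 3 libraries, and the labels do not say that these came from separate cultures, so the p-values measure only the spread between libraries, which may be technical.

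The sample descriptions open with a set label, which is 1 for wortmannin, 2 for Poria and Atractylodes, 3 for licorice and ginseng, 4 for angelica and peony, and A1 for vehicle. What a set stands for is not given. As there is 1 vehicle group, a difference of any treatment from vehicle cannot be told apart from a difference between sets or in DMSO. The titles put all 60 libraries in the same batch, A. Dose trends within an extract rest on a single set and on no vehicle library. In bulk RNA, fewer cells in S phase and less RNA of these genes per cell cannot be told apart, and this holds for every result given here.

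Library totals were 20.9 to 33.4 M counts (median 26.1 M), and 3 counts correspond to 0.0899 to 0.144 CPM before TMM scaling. The unit of level used below is CPM, counts scaled to library size with TMM factors. The hepatocyte markers ALB (10300 to 16900 CPM) and AFP (13100 to 18500 CPM), both before TMM scaling, were abundant in all 60 libraries. The leukocyte markers PTPRC and MS4A1 were at 0 counts in all 60. Poria 100 µg/mL replicate 1 stood farthest from its own group over all genes, with a root mean square log2 distance of 0.24 against 0.159 for the next library, and it had the highest mitochondrial share, 11.1% against a median of 7.59% over the series.

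Replication starts at origins that are licensed before S phase: the origin recognition complex, CDC6 and CDT1 load the ring-shaped MCM helicase onto DNA, and geminin (GMNN) blocks CDT1 once S phase has begun. CDC45, MCM10 and the GINS proteins turn the loaded ring into an active helicase, DNA polymerase alpha with its primase lays down primers, and polymerases delta and epsilon extend them with the PCNA clamp that the RFC complex loads. Many of these genes are known targets of the E2F transcription factors, which the retinoblastoma protein restrains until late G1, whereas genes of mitosis are known to carry the cell cycle homology region (CHR) with CCAAT boxes in their promoters.

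The promoters of the genes were read for the letters of those elements, which describes sequence and not binding. RefSeq promoter windows on GRCh38.p14, running over 250 bases before and 50 bases after the annotated start, were found for 37 of the 42 genes. No window was found for MCM4, MCM5, GINS4, RPA2 and RPA3. At least 1 of 4 E2F words (TTTCCCGC, TTTCGCGC, TTTGCCGC or TTTGGCGC, on either strand) was present in 20 of the 37 windows (54.1%), in 3 of 27 windows of mitosis and G2/M genes (11.1%) and in 3.33% of all 27305 windows. The CHR word TTTGAA was present in 1 of the 37 windows, that of RRM1 (2.7%), in 19 of the 27 mitosis windows (70.4%) and in 15.4% of all windows. CCAAT was present in 59.5% of the replication windows, 74.1% of the mitosis windows and 35.7% of all windows. Of the 37 genes with a window, MCM2, MCM3, MCM6 and MCM7, subunits of the same helicase ring, were the 4 with more than 1 E2F word. The ring subunits MCM4 and MCM5 could not be read for E2F words. The first sequences below show ring subunits that hold such words, with E2F words in capitals, and each window ends at the base before the annotated start.
MCM3, chr6:52284743-52284942, minus strand: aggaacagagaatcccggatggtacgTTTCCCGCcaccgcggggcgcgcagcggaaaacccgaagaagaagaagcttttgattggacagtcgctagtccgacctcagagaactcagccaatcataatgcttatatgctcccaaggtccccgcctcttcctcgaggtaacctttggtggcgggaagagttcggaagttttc
MCM6, chr2:135876444-135876643, minus strand: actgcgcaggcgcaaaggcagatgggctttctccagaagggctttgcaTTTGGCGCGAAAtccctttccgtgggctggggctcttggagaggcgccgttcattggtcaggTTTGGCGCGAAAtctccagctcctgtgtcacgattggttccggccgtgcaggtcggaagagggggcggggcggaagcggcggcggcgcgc
MCM7, chr7:100101398-100101597, minus strand: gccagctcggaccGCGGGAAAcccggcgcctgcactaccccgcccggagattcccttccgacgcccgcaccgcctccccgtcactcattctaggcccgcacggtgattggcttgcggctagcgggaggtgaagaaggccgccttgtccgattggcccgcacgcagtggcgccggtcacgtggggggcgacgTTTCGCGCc
In MCM6 each capital stretch holds TTTGGCGC on the printed strand and TTTCGCGC on the other strand, overlapping. The next sequences belong to a licensing factor, the clamp, a clamp loader subunit, an enzyme of nucleotide supply and a chromatin factor, each with 1 E2F word, 7 to 52 bases before the start.
CDT1, chr16:88803689-88803788, plus strand: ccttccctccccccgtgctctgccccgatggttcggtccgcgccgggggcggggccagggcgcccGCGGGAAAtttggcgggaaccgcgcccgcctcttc
PCNA, chr20:5126623-5126722, minus strand: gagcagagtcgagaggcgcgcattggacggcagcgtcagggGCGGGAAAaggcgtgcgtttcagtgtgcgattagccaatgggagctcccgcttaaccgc
RFC3, chr13:33818049-33818148, plus strand: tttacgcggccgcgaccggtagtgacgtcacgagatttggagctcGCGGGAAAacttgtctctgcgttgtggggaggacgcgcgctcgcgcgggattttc
TYMS, chr18:657553-657652, plus strand: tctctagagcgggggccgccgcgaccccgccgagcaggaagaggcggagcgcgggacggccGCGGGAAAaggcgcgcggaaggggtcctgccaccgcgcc
UHRF1, chr19:4909401-4909500, plus strand: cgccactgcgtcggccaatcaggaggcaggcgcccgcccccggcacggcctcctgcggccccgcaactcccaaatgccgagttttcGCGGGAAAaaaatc
The windows of PRIM1 and RRM2 are shown because both genes are singled out by their values further on. They hold none of the 4 words, which says only that these letters are not in this window.
PRIM1, chr12:56752324-56752423, minus strand: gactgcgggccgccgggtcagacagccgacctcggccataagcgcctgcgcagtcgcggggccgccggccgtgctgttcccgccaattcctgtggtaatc
RRM2, chr2:10122639-10122738, plus strand: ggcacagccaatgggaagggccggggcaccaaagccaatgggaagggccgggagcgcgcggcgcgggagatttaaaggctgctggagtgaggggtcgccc
For contrast, the mitosis genes PLK1 (a mitotic kinase) and CCNB2 (cyclin B2) are shown with the CHR word in capitals, which lies 24 bases before the start in each.
PLK1, chr16:23678789-23678888, plus strand: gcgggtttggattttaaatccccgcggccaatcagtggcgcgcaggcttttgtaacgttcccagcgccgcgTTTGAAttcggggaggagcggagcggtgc
CCNB2, chr15:59105046-59105145, plus strand: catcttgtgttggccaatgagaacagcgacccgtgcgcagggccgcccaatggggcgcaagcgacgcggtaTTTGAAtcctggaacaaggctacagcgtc

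**Figure D1:**
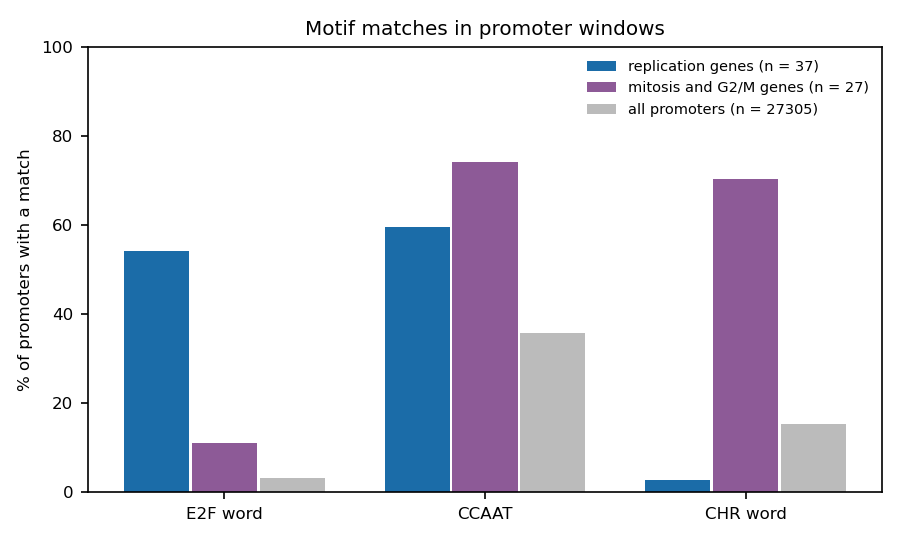
Share of promoter windows (y axis, %) that hold an E2F word, CCAAT or the CHR word, for 37 replication genes, 27 mitosis and G2/M genes and all 27305 windows (bars, left to right). E2F words stand in 54.1% of the replication windows and 11.1% of the mitosis windows, and the CHR word in 2.7% and 70.4%.

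With wortmannin all 42 genes fell. Every gene had a lower level in each wortmannin library than in any vehicle library, and all 42 passed edgeR's quasi-likelihood test at an adjusted p under 0.05 (Benjamini-Hochberg over 16093 genes). In this comparison 24.0% of all genes tested were called lower and 22.4% higher (46.3% in either direction), and 27.8% had all wortmannin libraries below all vehicle libraries. The median log2 change of the 42 genes was -0.73 (1.66-fold lower), and the median of all genes was 0.01. Summed over the 42 genes, which weights abundant genes most, the level was 2216 ± 9.74 CPM in wortmannin and 3684 ± 78.0 CPM in vehicle libraries (SD, n = 3 each). The 42 changes lay between -0.95 (TK1) and -0.19 (PRIM1). The role group of largest median fall was nucleotide supply (-0.89), followed by helicase activation (-0.79), clamp, loader and lagging strand (-0.73), chromatin (-0.68), polymerases (-0.66) and licensing (-0.66), with the fork checkpoint group last (-0.49). Differences between role groups were not tested.

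**Figure D2:**
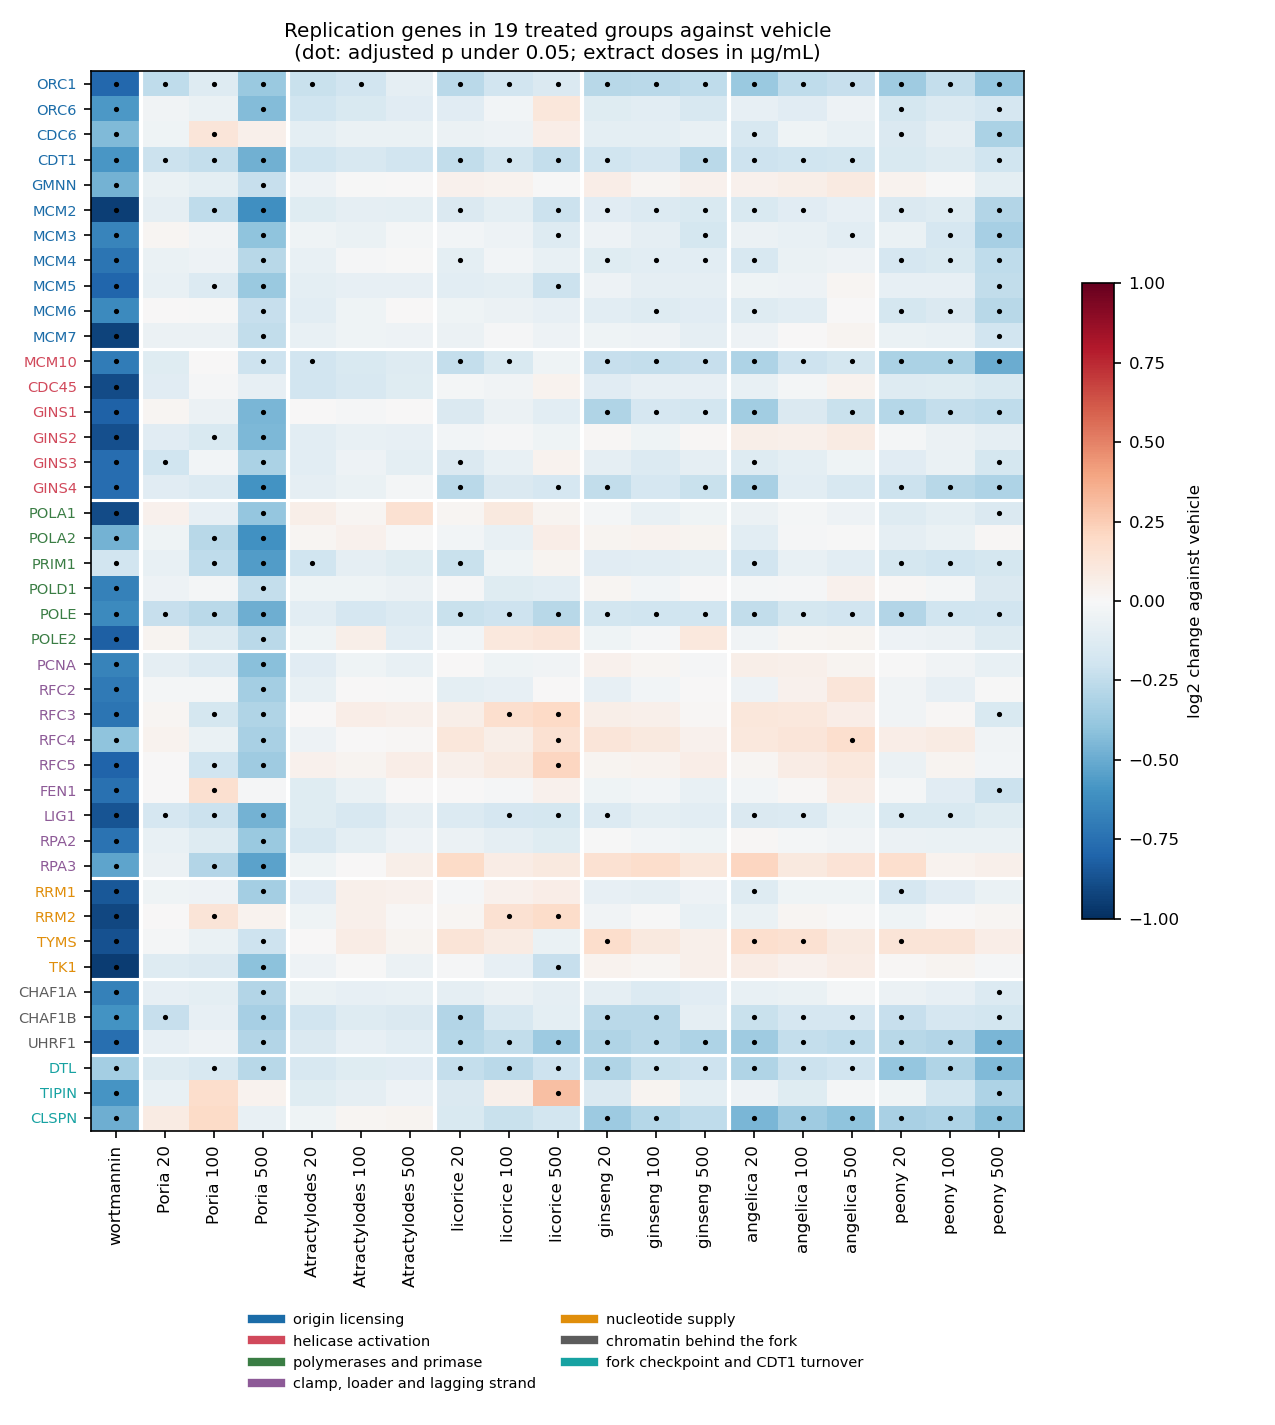
Log2 change against vehicle (colour, blue lower and red higher) of the 42 genes (rows, coloured by role group) in wortmannin and the 18 extract groups (columns), with a dot where the edgeR adjusted p is under 0.05. The wortmannin column is blue and dotted in all 42 rows, and Poria 500 µg/mL has 36 dots.

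Among the licensing genes, all 11 fell. MCM2 (ENSG00000073111), a subunit of the MCM helicase ring, had 88.3, 80.1 and 89.1 CPM in wortmannin libraries, against 164.5, 167 and 164 CPM in vehicle libraries. The groups were separated by a wide gap, and the log2 change was -0.94 ± 0.0371 (SE; 1.92-fold lower, edgeR adjusted p = 5.64e-27). CDC6, which loads the ring together with CDT1, had 84.6, 82.9 and 80.2 CPM in wortmannin, against 111.3, 110.9 and 114 CPM in vehicle libraries. Its groups were apart as well, though closer, with the smallest fall of the licensing group (log2 change -0.44 ± 0.0348, 1.36-fold lower, edgeR adjusted p = 2.31e-15). CDT1 had 47.4, 44.4 and 46.4 CPM in wortmannin, against 66.3, 73.6 and 66.5 CPM in vehicle libraries, of which replicate 2 was the highest. It fell by 0.58 ± 0.0608 on the log2 scale (1.49-fold lower, edgeR adjusted p = 2.02e-11). GMNN, the inhibitor of CDT1, had 55.0, 58.8 and 62.4 CPM in wortmannin, against 82.7, 84.5 and 77.9 CPM in vehicle libraries. Its groups did not overlap, and it fell by 0.47 ± 0.0519 (1.39-fold lower, edgeR adjusted p = 6.62e-11), so that the loader and its inhibitor were both lower.

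All 6 genes of helicase activation fell, between -0.90 and -0.70. CDC45, part of the active helicase, had 14.5, 13.0 and 15.0 CPM in wortmannin libraries, against 25.99, 26.9 and 26.1 CPM in vehicle libraries. The spread within each group was small beside the gap, and the log2 change was -0.90 ± 0.0654 (1.86-fold lower, edgeR adjusted p = 1.34e-16). MCM10, an activator of the loaded helicase, had 27.7, 28.5 and 29.7 CPM in wortmannin, against 46.0, 47.8 and 45.9 CPM in vehicle libraries. That was the smallest fall of this role group, with groups far apart (log2 change -0.70 ± 0.0502, edgeR adjusted p = 7.34e-17). The 4 GINS genes, whose products form a complex of the active helicase, fell by 0.76 (GINS4) to 0.88 (GINS2).

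The polymerases and primase held both a large and the smallest change. POLA1, the catalytic subunit of DNA polymerase alpha, had 20.2, 22.4 and 19.5 CPM in wortmannin libraries, against 36.9, 38.1 and 40.5 CPM in vehicle libraries. It fell by 0.89 ± 0.0531 with no overlap (1.86-fold lower, edgeR adjusted p = 6.74e-20). PRIM1 (ENSG00000198056), the catalytic subunit of the primase bound to that polymerase, had 24.8, 27.0 and 26.7 CPM in wortmannin, against 32.0, 27.7 and 30.2 CPM in vehicle libraries. The highest wortmannin library lay just under the lowest vehicle library, and the log2 change was -0.19 ± 0.0535 (1.14-fold lower, edgeR adjusted p = 0.00222). POLA2, the second subunit of polymerase alpha, fell by 0.47 ± 0.0501, POLD1 and POLE, the catalytic subunits of polymerases delta and epsilon, fell by 0.67 and 0.64, and POLE2, a further epsilon subunit, fell by 0.82.

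At the clamp and the lagging strand all 9 genes fell. PCNA, the sliding clamp, had 227, 223 and 219 CPM in wortmannin libraries, against 384, 349 and 331.5 CPM in vehicle libraries. The vehicle libraries spread more than the wortmannin libraries but stayed well above them, and the log2 change was -0.67 ± 0.056 (1.59-fold lower, edgeR adjusted p = 1.52e-14). LIG1, the ligase that seals Okazaki fragments, had 32.5, 28.4 and 30.9 CPM in wortmannin, against 53.8, 56.5 and 56.8 CPM in vehicle libraries. This was the largest fall of the group (-0.87 ± 0.0503, edgeR adjusted p = 3.02e-20), with no overlap. RFC4, a subunit of the clamp loader, had 25.2, 26.1 and 25.4 CPM in wortmannin, against 33.0, 35.1 and 33.3 CPM in vehicle libraries. Its fall was the smallest of the group (-0.40 ± 0.0613, edgeR adjusted p = 2.53e-07), while the other loader subunits RFC2, RFC3 and RFC5 fell by 0.71, 0.73 and 0.80. FEN1, the flap nuclease, fell by 0.75, and RPA2 and RPA3, which coat single-stranded DNA, fell by 0.74 and 0.52.

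The 4 genes of nucleotide supply changed most evenly, between -0.95 and -0.85. TK1, the thymidine salvage kinase, had 45.5, 37.2 and 39.0 CPM in wortmannin libraries, against 81.2, 80.0 and 73.6 CPM in vehicle libraries. It fell by 0.95 ± 0.0614 with no overlap (1.93-fold lower, edgeR adjusted p = 1.62e-18). RRM2 (ENSG00000171848), the regulatory subunit of ribonucleotide reductase, had 186, 193 and 179 CPM in wortmannin, against 352.5, 358.5 and 336 CPM in vehicle libraries. The 2 groups were far apart, and the log2 change was -0.91 ± 0.0324 (1.88-fold lower, edgeR adjusted p = 1.04e-28). RRM1, its catalytic partner, had 67, 72 and 68.3 CPM in wortmannin, against 129, 124 and 119.6 CPM in vehicle libraries, and fell by 0.85 ± 0.0389 (edgeR adjusted p = 3.18e-24). TYMS, thymidylate synthase, had 82.0, 82.7 and 87.0 CPM in wortmannin, against 158, 151.5 and 152 CPM in vehicle libraries. Its groups were as clearly apart, with a fall of 0.87 ± 0.0471 (edgeR adjusted p = 1.82e-21).

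UHRF1, which binds hemimethylated DNA behind the fork, had 66.2, 76.1 and 70.7 CPM in wortmannin libraries, against 116, 125 and 119 CPM in vehicle libraries. It fell by 0.76 ± 0.0461 with no overlap (edgeR adjusted p = 1.97e-19). CHAF1B, a subunit of the histone chaperone CAF-1, had 22.8, 21.1 and 23.4 CPM in wortmannin, against 34.5, 34.4 and 32.8 CPM in vehicle libraries, and fell by 0.60 ± 0.0618 (edgeR adjusted p = 1.36e-11). The other CAF-1 subunit measured, CHAF1A, fell by 0.68. TIPIN, a fork protection factor, had 8.19, 9.17 and 7.76 CPM in wortmannin, against 13.6, 11.5 and 12.6 CPM in vehicle libraries. The groups did not overlap (-0.59 ± 0.0977, edgeR adjusted p = 1.66e-06). DTL, the receptor through which a ubiquitin ligase degrades CDT1, had 49.0, 46.6 and 45.7 CPM in wortmannin, against 62.1, 56.9 and 59.5 CPM in vehicle libraries. Its fall of 0.34 ± 0.0478 (1.26-fold lower, edgeR adjusted p = 4.71e-08) was the second smallest of the 42, after that of PRIM1. CLSPN, a mediator of the fork checkpoint, fell by 0.49.

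**Figure D3:**
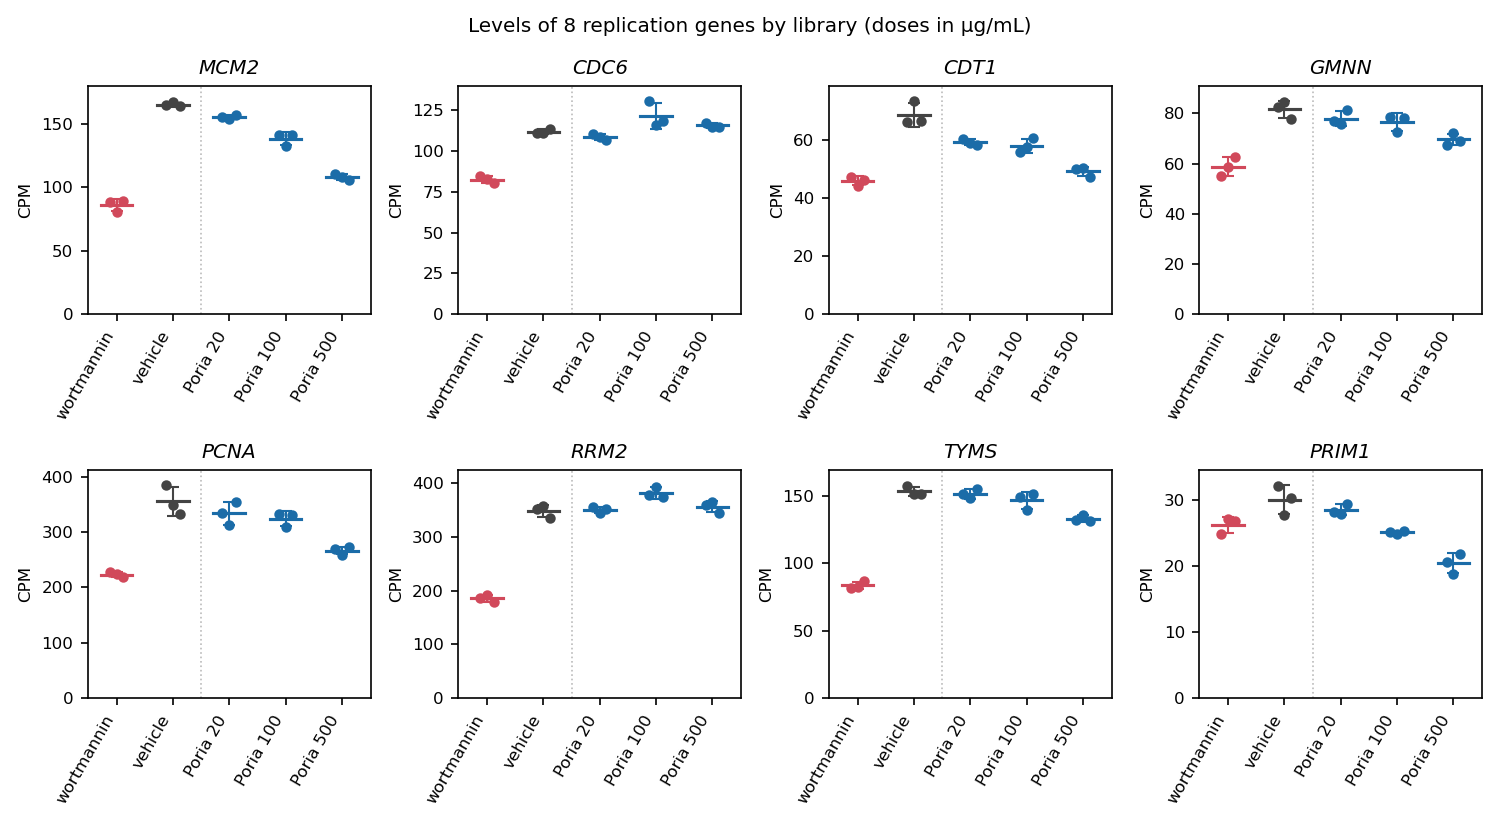
CPM (y axis, from 0) in every library (points), with mean (line) and SD (bar) of 3 libraries, for 8 genes in wortmannin, vehicle and Poria at 20, 100 and 500 µg/mL. MCM2 steps down with the Poria dose to 110, 108 and 106 CPM at 500 µg/mL, while RRM2 stays at 344 to 394 CPM in all Poria libraries and lies at 179 to 193 CPM in wortmannin.

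A further 6 lists of the pathway hold 81 genes, of which 80 were tested, and 66 of these fell and 4 rose, with a median of -0.52. All 7 genes of origin firing fell, among them DBF4, the activator of the CDC7 kinase (-0.86 ± 0.051), and TICRR (-0.82 ± 0.0558), as did all 6 of histone supply and DNA methylation, with NASP, a histone chaperone, at -0.68 ± 0.0345 and DNMT1, the maintenance methyltransferase, at -0.64 ± 0.0396. Of 21 further replisome subunits 17 fell, RPA1, the large subunit of RPA, by 0.83 ± 0.0355. The 1 subunit called higher was POLD4, the smallest subunit of polymerase delta, and the others that did not fall were not called. POLD4 had 13.9, 12.9 and 14.1 CPM in wortmannin libraries, against 6.64, 7.22 and 6.84 CPM in vehicle libraries. All 3 wortmannin libraries were far above vehicle, and POLD4 rose by 0.98 ± 0.092 (edgeR adjusted p = 6.32e-13). Of 8 further genes of nucleotide supply 6 fell, most of all DTYMK, thymidylate kinase (-1.03 ± 0.0843), while SAMHD1, which breaks down deoxynucleotides, rose by 0.62 ± 0.045. Of 18 genes of fork repair and checkpoint kinases 14 fell, led by FANCI (-0.91 ± 0.0418) and RAD51AP1 (-0.82 ± 0.0796), and RAD17 rose by 0.20. Of 20 G1 and S regulators tested 16 fell and 1, RB1, rose by 0.14. CCNA2, cyclin A2, had 70.2, 66.7 and 65.3 CPM in wortmannin, against 176, 157 and 152 CPM in vehicle libraries. That was the largest fall of the 80 genes (-1.26 ± 0.043), and E2F8, a repressor among the E2F factors, followed in its list at -0.75 ± 0.0618.

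For scale, all 32 mitosis and G2/M genes also fell with wortmannin, with a median of -1.18 and a range of -1.75 to -0.67, so that their smallest fall was close to the median of the replication genes. The difference between the lists was not tested. The summed level of the 10 hepatocyte markers was 79010 to 81390 CPM in wortmannin and 68350 to 70400 CPM in vehicle libraries, and 7 of the 10 rose. The 8 blood cell markers summed to 2041 to 2379 CPM in wortmannin and 1276 to 1421 CPM in vehicle libraries, carried by LYZ with PTPRC and MS4A1 at 0, and the 8 fibroblast and stellate markers to 51.6 to 54.7 against 64.2 to 67.4 CPM, carried by ACTA2. The part of these shifts in the result was not tested. Leaving out any of the 6 libraries left all 42 genes called.

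Most of the genes fell between 20 and 500 µg/mL of Poria. Of the 42, 32 fell and 1 rose in the trend, the log2 ratio of 500 over 20 µg/mL, where 21.2% of all genes tested were called lower and 22.3% higher. In 33 genes every library at 500 µg/mL lay below every library at 20 µg/mL (24.4% of all genes did). The median of the 42 trends was -0.28. The summed level was 3534 ± 58.1 CPM at 20, 3521 ± 49.5 CPM at 100 and 3014 ± 11.0 CPM at 500 µg/mL (SD, n = 3 each). The fall therefore stood mostly in the upper step: all 42 genes had a lower fitted level at 500 than at 100 µg/mL, with a median step of -0.24, against 27 genes and a median of -0.03 between 100 and 20 µg/mL. By library the summed level was 3467 to 3565 CPM at 100 and 3006 to 3026 CPM at 500 µg/mL. The steps without Poria 100 µg/mL replicate 1, and the share of all genes tested that were lower at each step, were not determined. All 32 mitosis and G2/M genes fell over the same range, with a median of -0.47 (-0.89 to -0.18).

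**Figure D4:**
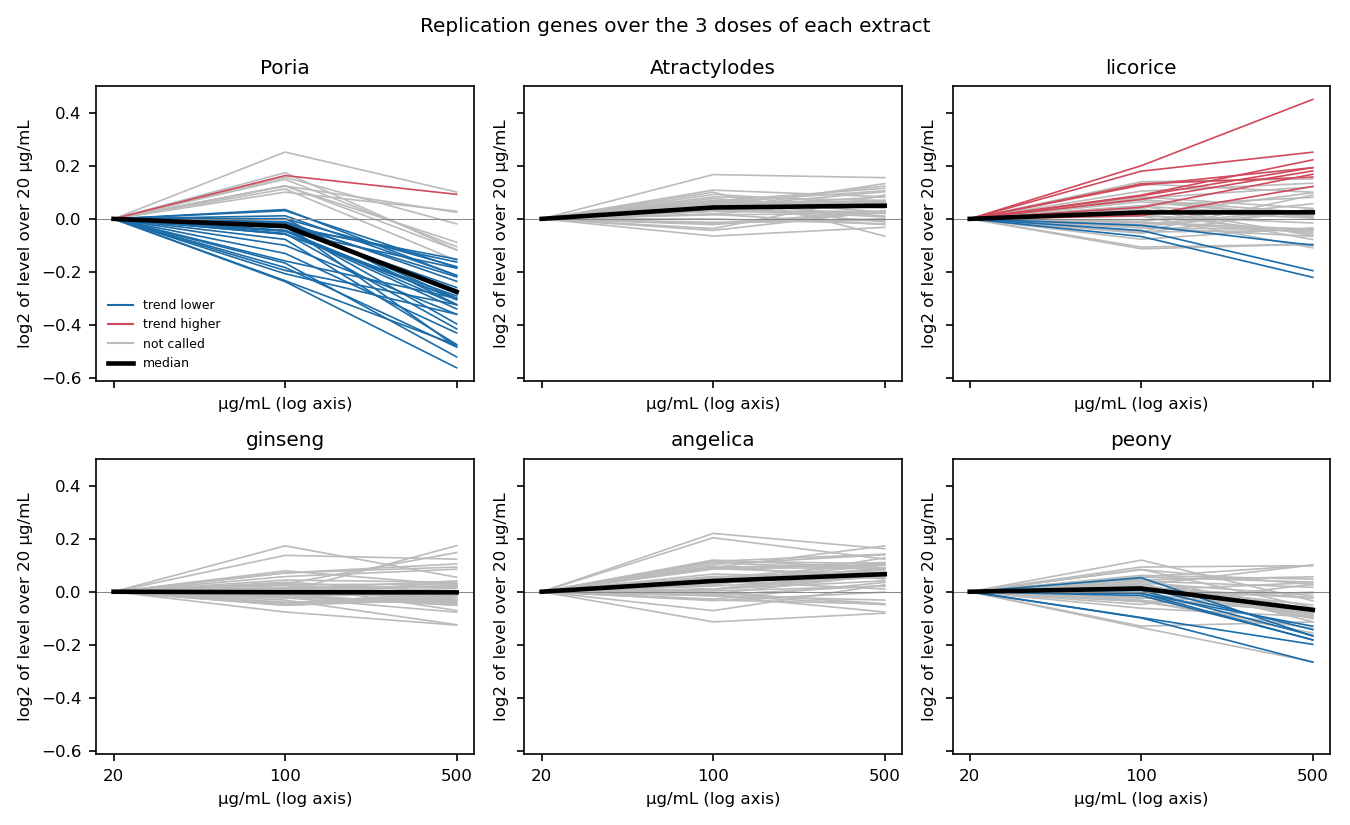
Mean CPM of 3 libraries for each of the 42 genes relative to 20 µg/mL (y axis, log2) against dose (x axis, µg/mL, log scale) for the 6 extracts, with genes whose trend was called lower in blue, called higher in red, not called in grey, and the median in black. In Poria the median is -0.03 at 100 µg/mL and ends at -0.28 at 500 µg/mL, whereas Atractylodes, ginseng and angelica have no coloured line.

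The polymerases and primase were the role group in which all genes fell with Poria (6 of 6, median -0.36). POLA2 had 21.8, 19.7 and 20.5 CPM at 20, 18.1, 16.7 and 17.9 CPM at 100, and 14.2, 13.0 and 14.9 CPM at 500 µg/mL. The 3 doses did not overlap, and the trend was the lowest of the 42 genes (-0.56 ± 0.0521, 1.48-fold lower, edgeR adjusted p = 5.68e-13). PRIM1 had 28.2, 27.9 and 29.4 CPM at 20, 25.1, 24.8 and 25.3 CPM at 100, and 20.6, 18.7 and 21.8 CPM at 500 µg/mL. Here too each dose lay below the one before, with a trend of -0.48 ± 0.0564 (1.4-fold lower, edgeR adjusted p = 4.91e-10). At 500 µg/mL its 3 libraries lay below the 3 wortmannin libraries (24.8 to 27.0 CPM).

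Of the licensing genes 9 fell, 1 rose and 1 was not called. MCM2 had 155, 153 and 156 CPM at 20, 141, 132 and 141 CPM at 100, and 110, 108 and 106 CPM at 500 µg/mL. The doses were fully separated, with a trend of -0.52 ± 0.0369 (1.43-fold lower, edgeR adjusted p = 7.78e-17). CDT1 had 60.4, 59.1 and 58.6 CPM at 20, 56.2, 57.6 and 60.8 CPM at 100, and 49.95, 50.4 and 47.5 CPM at 500 µg/mL. The lower doses overlapped and the top dose lay beneath them (-0.27 ± 0.0617, edgeR adjusted p = 0.000341). GMNN had 76.9, 75.6 and 81.2 CPM at 20, 78.7, 72.6 and 78.3 CPM at 100, and 67.5, 72.1 and 69.2 CPM at 500 µg/mL, a smaller fall without overlap between 500 and 20 µg/mL (-0.16 ± 0.0521, edgeR adjusted p = 0.00944). Without Poria 20 µg/mL replicate 3 it was not called (-0.13, edgeR adjusted p = 0.0647). CDC6 (ENSG00000094804) had 110.6, 108.5 and 106.7 CPM at 20, 131, 116 and 118 CPM at 100, and 117, 115.0 and 115.1 CPM at 500 µg/mL. It was the 1 gene called higher, with its peak at 100 µg/mL (0.09 ± 0.0345, edgeR adjusted p = 0.0265). That call was lost without replicate 2 or 3 at 20 µg/mL, or without replicate 1, 2 or 3 at 500 µg/mL (edgeR adjusted p = 0.0506 to 0.114).

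At the clamp and lagging strand 8 of 9 genes fell. PCNA had 334, 312 and 354.5 CPM at 20, 331.5, 308 and 331 CPM at 100, and 268, 258.5 and 272 CPM at 500 µg/mL. The lower doses overlapped, and the top dose lay below all other Poria libraries (-0.32 ± 0.0559, edgeR adjusted p = 3.82e-06). FEN1 was the gene of this group not called (-0.02, 95% interval -0.12 to 0.09). In nucleotide supply TYMS had 151, 148.5 and 155.5 CPM at 20, 149, 140 and 152 CPM at 100, and 132, 136 and 132 CPM at 500 µg/mL. The top dose was below the others, by a smaller margin (-0.19 ± 0.0464, edgeR adjusted p = 0.000894). TK1 had 71.5, 73.4 and 70.0 CPM at 20, 68.1, 74.0 and 70.6 CPM at 100, and 54.3, 63.8 and 58.7 CPM at 500 µg/mL, with the top dose again lowest (-0.28 ± 0.0605, edgeR adjusted p = 0.000121). RRM2 stood apart from them. It had 356, 344 and 352 CPM at 20, 378, 394 and 374 CPM at 100, and 359, 366 and 346 CPM at 500 µg/mL, so that the end doses overlapped and the middle dose was highest (0.03 ± 0.0319, 95% interval -0.04 to 0.09, edgeR adjusted p = 0.561).

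Helicase activation was divided, with GINS1, GINS2 and GINS4 called lower (-0.48, -0.34 and -0.48) and MCM10 (-0.09), CDC45 (0.03) and GINS3 (-0.11) not called. CDC45 had 22.9, 24.3 and 25.9 CPM at 20, 24.8, 28.6 and 25.0 CPM at 100, and 24.8, 24.2 and 25.5 CPM at 500 µg/mL, overlapping throughout. Among the remaining genes DTL had 59.8, 52.7 and 50.9 CPM at 20, 54.6, 52.1 and 53.4 CPM at 100, and 49.3, 47.7 and 50.03 CPM at 500 µg/mL. Replicate 1 at 20 µg/mL was the highest, and without it the trend was -0.08 (edgeR adjusted p = 0.214), against -0.15 ± 0.0485 with it (edgeR adjusted p = 0.00855). CHAF1A and UHRF1 fell by 0.22 and 0.21, while CHAF1B, TIPIN and CLSPN were not called. The licensing gene not called, ORC1 of the origin recognition complex, had a trend of -0.12 (edgeR adjusted p = 0.0567).

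In the further pathway lists 51 of 80 genes fell and 7 rose over the Poria doses, with a median of -0.23. POLD4 rose here as well, with 5.83, 7.54 and 6.80 CPM at 20, 8.47, 8.83 and 7.47 CPM at 100, and 11.4, 13.7 and 12.01 CPM at 500 µg/mL (0.88 ± 0.0956). CDKN1A, the p21 inhibitor of cyclin-dependent kinases, rose by 0.61 ± 0.0496, and SKP2, a ubiquitin ligase subunit that degrades such inhibitors, fell by 0.79 ± 0.0521. The histone chaperones ASF1A and ASF1B were called in opposite directions (0.35 ± 0.0462 and -0.76 ± 0.0782). The other genes that rose were CCND3 (0.41), E2F3, DSCC1 (0.20 each) and ORC4 (0.18). The remaining lists were led by TICRR (-0.56) and MTBP (-0.30) in origin firing, SAMHD1 (-0.45) and DTYMK (-0.44) in nucleotide supply, CHTF18 (-0.46) among replisome subunits, and RAD51AP1 (-0.41) and BRCA1 (-0.39) in fork repair.

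The 8 blood cell markers summed to 2167 to 2701 CPM at 500 and 1634 to 1826 CPM at 20 µg/mL, with PTPRC and MS4A1 at 0, and the fibroblast and stellate markers to 34.8 to 37.2 against 62.7 to 65.7 CPM. Mitochondrial shares were 8.02% to 8.93% at 500 and 7.6% to 9.43% at 20 µg/mL. The part of these values in the trend was not tested. Without Poria 100 µg/mL replicate 1, the library farthest from its group, 33 genes were called, and over all libraries left out in turn the count was 31 to 34.

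The wortmannin change and the Poria trend differed for most of the genes. Added after both sets of values were seen, the difference between the wortmannin change and the Poria trend passed for 38 of the 42 genes: the wortmannin change was the lower of the pair for 37 and the higher for 1, where 25.3% and 20.9% of all genes tested differed in those directions. The median difference was -0.46 on the log2 scale. The comparison sets 10 µM of a compound over vehicle beside 2 doses of an extract, so its overall size has no matched dose. Its baselines are also unlike, vehicle on one side and 20 µg/mL of Poria in another set on the other. Against vehicle the median of the 42 genes at 500 µg/mL of Poria was -0.34, beside -0.28 in the trend. The part of the baselines in the differences was not tested. RRM2 and CDC45 had the largest differences (-0.93 ± 0.0454, edgeR adjusted p = 9.18e-23, and -0.93 ± 0.0909, edgeR adjusted p = 3.54e-12), followed by MCM7 (-0.75), FEN1 (-0.73) and the enzymes TYMS (-0.69) and TK1 (-0.67). PRIM1 was the gene in which the Poria trend was the lower (0.29 ± 0.0778, edgeR adjusted p = 0.00173). The difference was not called for 4 genes, POLA2 (0.09, 95% interval -0.06 to 0.23), RFC4 (-0.04, -0.22 to 0.13), RPA3 (-0.05, -0.37 to 0.27) and ORC6 (-0.18, -0.34 to -0.02, edgeR adjusted p = 0.057). ORC6 was called without Poria 100 µg/mL replicate 1, vehicle replicate 1 or wortmannin replicate 2 (edgeR adjusted p = 0.0309 to 0.0496).

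**Figure D5:**
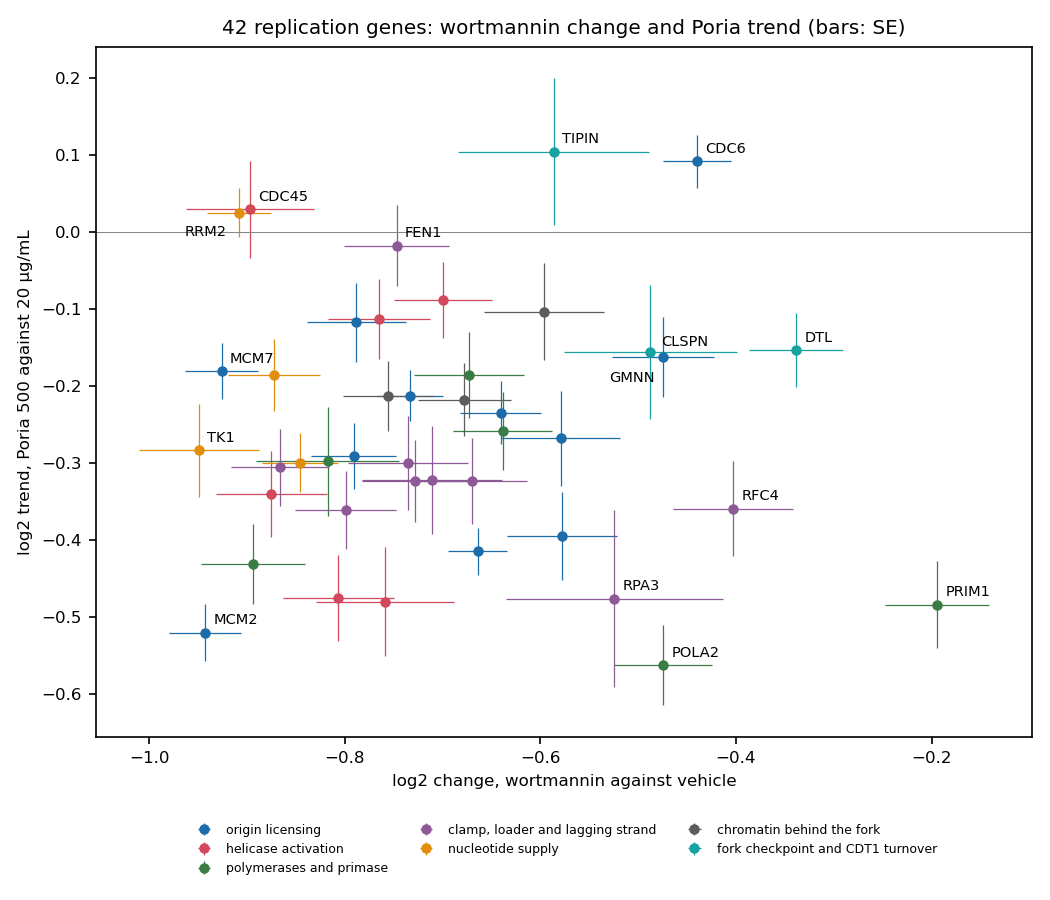
Log2 trend over Poria doses (y axis, 500 against 20 µg/mL) against log2 change with wortmannin (x axis, against vehicle) for the 42 genes (points with SE bars, coloured by role group). RRM2 and CDC45 lie at about -0.90 on the x axis and 0.03 on the y axis, and PRIM1 lies at -0.19 and -0.48.

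Across the 42 genes the wortmannin changes and the Poria trends had a Pearson correlation of -0.03 and a Spearman correlation of 0.01, a description of genes measured in the same libraries and fitted together, though no library enters both comparisons. The 20 genes with an E2F word had medians of -0.74 with wortmannin and -0.29 over the Poria doses, and the 17 with a promoter window but no such word had medians of -0.70 and -0.19. The ranges overlapped widely (-0.94 to -0.34 against -0.95 to -0.19 with wortmannin).

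Licorice moved a few of the genes over its doses, in both directions. Of the 42, 9 rose and 3 fell, where 11.0% of all genes tested were called higher and 10.3% lower. The median trend was 0.02. TIPIN had 12.4, 10.1 and 11.5 CPM at 20, 13.9, 13.3 and 11.9 CPM at 100, and 14.9, 15.0 and 16.6 CPM at 500 µg/mL. Its top dose lay above all lower doses (0.45 ± 0.0924, 1.36-fold higher, edgeR adjusted p = 0.000214). PRIM1 had 27.0, 23.4 and 26.5 CPM at 20, 29.4, 29.1 and 28.5 CPM at 100, and 30.5, 30.0 and 31.0 CPM at 500 µg/mL, separated at each dose and rising (0.25 ± 0.054, edgeR adjusted p = 0.000386). ORC6, of the origin recognition complex, had 43.2, 48.1 and 48.3 CPM at 20, 45.0, 52.5 and 51 CPM at 100, and 54.2, 54.8 and 53.8 CPM at 500 µg/mL. Again the top dose was above all others (0.22 ± 0.055, edgeR adjusted p = 0.00185). RRM2 had 351, 354 and 358 CPM at 20, 396, 387 and 382 CPM at 100, and 393, 396 and 397 CPM at 500 µg/mL, a step up at 100 µg/mL and no further step (0.16 ± 0.0318, edgeR adjusted p = 0.000157). CDC6, with 108.2, 107.2 and 107.0 CPM at 20, 107.5, 109.4 and 108.2 CPM at 100, and 113.9, 120.3 and 116.8 CPM at 500 µg/mL, rose by 0.12 ± 0.0344 (edgeR adjusted p = 0.00672), a call lost without licorice 500 µg/mL replicate 2 (0.10, edgeR adjusted p = 0.0541) and with no filter (0.181). MCM10, GINS3, CHAF1B and RFC5 rose by 0.17 to 0.19.

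The 3 genes that fell over the licorice doses included 2 of the 4 of nucleotide supply. TK1 had 73.9, 79.1 and 80.0 CPM at 20, 72.7, 75.7 and 74.0 CPM at 100, and 66.9, 64.3 and 68.7 CPM at 500 µg/mL. The top dose lay below all others (-0.22 ± 0.0595, edgeR adjusted p = 0.0048). TYMS had 161, 172 and 170.5 CPM at 20, 157, 162 and 169 CPM at 100, and 136, 146 and 157 CPM at 500 µg/mL, with the highest library of the top dose just under the lowest at 100 µg/mL (-0.20 ± 0.046, edgeR adjusted p = 0.00109). MCM3, a ring subunit, had 248, 261 and 249.5 CPM at 20, 243.6 to 253.1 CPM at 100, and 233, 236 and 240 CPM at 500 µg/mL. Its small fall (-0.10 ± 0.0299, edgeR adjusted p = 0.0116) was not called without licorice 20 µg/mL replicate 2 (-0.08, edgeR adjusted p = 0.0994) or licorice 500 µg/mL replicate 1 (-0.09, edgeR adjusted p = 0.0586), with no filter (0.239), with only the groups compared (0.0663) or by regression (0.0763). MCM2 (-0.06), GMNN (-0.05), PCNA (-0.04) and CDT1 (0.01) were not called. Of the 80 further pathway genes 13 rose and 3 fell. ASF1A led them (0.61 ± 0.0455), ahead of CCNE2, cyclin E2 (0.42 ± 0.135), ORC5 (0.27 ± 0.0616), the checkpoint kinase ATR (0.27 ± 0.0685), CDKN1A (0.26 ± 0.0494), HUS1 (0.25), DSCC1 (0.23), DCTPP1 (0.21) and DCK (0.19), and no gene of origin firing was called. Over the same doses 9 of the 10 hepatocyte markers fell, and their summed level was 56650 to 58400 CPM at 500 and 72120 to 74190 CPM at 20 µg/mL. The 8 fibroblast and stellate markers summed to 50.9 to 55 against 65.4 to 68.8 CPM, with 1 of the 2 tested called lower, and the 8 blood cell markers to 1449 to 1649 against 1551 to 1674 CPM, with PTPRC and MS4A1 at 0. The part of these values in the trends was not tested.

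The Poria trend was lower than the licorice trend for 32 genes and higher for none, where 12.3% of all genes tested were lower and 13.5% higher. These trends share no library. PRIM1, ORC6 and RFC5, a subunit of the clamp loader, were called in opposite directions. Their differences were -0.73 ± 0.0781 for PRIM1 (edgeR adjusted p = 1.45e-10), -0.62 ± 0.0791 for ORC6 (edgeR adjusted p = 1.65e-08) and -0.53 ± 0.0703 for RFC5 (edgeR adjusted p = 4.06e-08). ORC6 had 49.0, 48.2 and 49.9 CPM at 20, 52.4, 46.8 and 44.7 CPM at 100, and 37.6, 37.6 and 36.5 CPM at 500 µg/mL of Poria, with the top dose below all others, whereas it was above all others with licorice. RFC5 had 32.5, 33.2 and 33.3 CPM at 20, 27.8, 29.3 and 28.6 CPM at 100, and 23.7, 27.5 and 25.9 CPM at 500 µg/mL of Poria, each dose below the one before. With licorice RFC5 had 32.2, 33.6 and 36.4 CPM at 20, 34.3, 34.97 and 36.1 CPM at 100, and 36.5, 40.4 and 38.0 CPM at 500 µg/mL. For 10 genes the difference did not pass. TYMS (0.01, 95% interval -0.12 to 0.14) and TK1 (-0.06, -0.23 to 0.11), which fell with both extracts, had differences near 0, as did CDC6 (-0.03), CDC45 (-0.03) and FEN1 (-0.05). CDC6 was called higher in both trends, but each call depended on single libraries and was lost with no filter. RRM2 differed by -0.13 ± 0.0451 (edgeR adjusted p = 0.0238), a call lost without licorice 20 µg/mL replicate 1, Poria 20 µg/mL replicate 1 or Poria 500 µg/mL replicate 3 (edgeR adjusted p = 0.0514 to 0.0783), with no filter (0.288) and with only the groups compared (0.0551).

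Over the peony doses 8 of the 42 genes fell between 20 and 500 µg/mL and none rose, where 1.70% of all genes tested were called lower (3.49% in either direction). The median trend was -0.07, and 5 of the 8 belonged to licensing. MCM3 had 241, 252 and 245 CPM at 20, 232, 234 and 223 CPM at 100, and 205, 205.5 and 203 CPM at 500 µg/mL. The 3 doses did not overlap, and this was the clearest of the peony trends (-0.27 ± 0.0301, edgeR adjusted p = 1.15e-08). CDC6 had 101, 104 and 98.4 CPM at 20, 107, 106 and 102 CPM at 100, and 92.0, 88.1 and 90.2 CPM at 500 µg/mL, lowest at the top dose (-0.17 ± 0.0348, edgeR adjusted p = 0.00157). MCM2 had 149, 151 and 147.5 CPM at 20, 151, 152 and 149 CPM at 100, and 134, 136 and 135 CPM at 500 µg/mL, a narrow but complete separation of the top dose (-0.14 ± 0.0365, edgeR adjusted p = 0.015). FEN1 had 75.2, 83.5 and 77.0 CPM at 20, 73.7, 75.1 and 71.4 CPM at 100, and 71.2, 67.7 and 66.5 CPM at 500 µg/mL. Replicate 2 at 20 µg/mL was the highest, and without it the trend was -0.15 (edgeR adjusted p = 0.218), against -0.20 ± 0.0531 with it (edgeR adjusted p = 0.0227).

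MCM10 had 37.1, 35.6 and 39.8 CPM at 20, 37.5, 38.0 and 36.6 CPM at 100, and 32.2, 34.0 and 32.9 CPM at 500 µg/mL of peony, with the top dose lowest (-0.18, edgeR adjusted p = 0.0313). MCM5, UHRF1 and MCM7 completed the 8, with trends of -0.17, -0.18 and -0.13. UHRF1 had 94.5, 100.4 and 101.9 CPM at 20, 99.6, 93.8 and 100.4 CPM at 100, and 89.6, 84.3 and 87.8 CPM at 500 µg/mL, lowest at the top dose. In MCM5 the libraries were 123.5, 129.9 and 127.6 CPM at 20, 131.2, 125.1 and 126.0 CPM at 100, and 112.5, 113.5 and 113.7 CPM at 500 µg/mL, the top dose apart from the others. In MCM7 they were 234.8, 253.1 and 228.3 CPM at 20, 246.1, 234.0 and 232.5 CPM at 100, and 220.2, 220.2 and 213.9 CPM at 500 µg/mL, where the gap to the lower doses was small. The count rested on few libraries: it was 3 without peony 20 µg/mL replicate 2, 4 without peony 500 µg/mL replicate 1, 2 or 3, and 5 without peony 20 µg/mL replicate 3. MCM3 and CDC6 kept the call with any library left out, though CDC6 lost it with no filter on low counts (edgeR adjusted p = 0.0655) and by regression on log dose (0.147). UHRF1 was not called without replicate 2 or 3 at 20 µg/mL (edgeR adjusted p = 0.0771 and 0.0899) or replicate 2 at 500 µg/mL (0.118). The call of MCM2 was lost without peony 20 µg/mL replicate 2 or peony 500 µg/mL replicate 1 or 3 (edgeR adjusted p = 0.0533 to 0.0821), and that of MCM7 without replicate 2 at 20 µg/mL or any replicate at 500 µg/mL (0.0598 to 0.35). MCM5 was not called without replicate 2 or 3 at 20 µg/mL or replicate 1 or 2 at 500 µg/mL (0.0513 to 0.103). MCM10 was not called without replicate 1 or 3 at 20 µg/mL or replicate 1 or 3 at 500 µg/mL (0.0539 to 0.206), and FEN1 also without replicate 2 or 3 at 500 µg/mL (0.084 and 0.115). RRM2 (0.06), TK1 (-0.02), TYMS (-0.06), CDT1 (-0.05), PCNA (-0.07) and GMNN (-0.14) were not called. Of the 80 further pathway genes 3 rose and 4 fell, led by HUS1, a subunit of the checkpoint clamp (0.38 ± 0.0678), and CCND1, cyclin D1 (-0.29 ± 0.046).

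For the other 3 extracts no gene passed over the doses. Trends lay between -0.07 and 0.16 for Atractylodes, between -0.13 and 0.17 for ginseng and between -0.08 and 0.17 for angelica, and 0.0497%, 0.149% and 1.22% of all genes tested were called in these trends. At an unadjusted p under 0.05 in edgeR there were 4 genes for Atractylodes (ORC1, MCM6, FEN1 and RRM1, all higher), 5 for ginseng (MCM3, GINS1, POLE2, TYMS and CHAF1B, 2 lower and 3 higher) and 13 for angelica, all higher. The share of all genes tested under that unadjusted cutoff was not determined, so these counts cannot be set beside the adjusted shares. DESeq2 called 1 gene in each of the 3 trends. In edgeR 1 gene was called for ginseng without ginseng 500 µg/mL replicate 2 and 1 for angelica without angelica 20 µg/mL replicate 2. A joint test of equal trends over the 6 extracts passed for 36 of the 42 genes, where 35.1% of all genes tested passed.

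Against vehicle the extracts gave mostly lower levels, and these comparisons share the 3 vehicle libraries, so that their counts are not independent of each other. At 20, 100 and 500 µg/mL of Poria 6, 13 and 36 genes were called lower, where 1.71%, 15.3% and 23.7% of all genes tested were. Without Poria 100 µg/mL replicate 1 that dose had 10 genes lower and 1 higher, against 13 and 3 with it. For peony the counts were 17, 14 and 25 (8.19%, 5.26% and 9.98%), for licorice 12, 7 and 11 (5.28%, 7.68% and 15.7%), for ginseng 13, 11 and 11 (7.15%, 4.40% and 5.58%), for angelica 18, 10 and 10 (12.2%, 7.65% and 9.41%), and for Atractylodes 3, 1 and 0 (0.261%, 0.478% and 0.329%). Few genes were called higher. CDC6, FEN1 and RRM2 were higher at 100 µg/mL of Poria (15.1% of all genes tested), RFC3 and RRM2 at 100 µg/mL of licorice (8.76%), and RFC3, RFC4, RFC5, RRM2 and TIPIN at 500 µg/mL of licorice (16.7%). TYMS was higher at 20 µg/mL of ginseng (6.72%), of angelica (12.1%) and of peony (7.57%) and at 100 µg/mL of angelica (6.97%), and RFC4 at 500 µg/mL of angelica (9.51%). Several of these higher calls turned on a vehicle library. Without vehicle replicate 3 TYMS was higher in 2 groups, RFC3 in 1, and RFC4 and FEN1 in 0. Without vehicle replicate 2 TIPIN was higher in 0 groups, and without vehicle replicate 1 RFC3 was higher in 4 and RFC4 in 0. RRM2 stayed higher in 3 groups without any of these libraries. At 500 µg/mL of Atractylodes, where edgeR called none, 10 genes had an unadjusted p under 0.05, 9 of them lower. The share of all genes tested under that unadjusted cutoff was not determined.

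Several of these counts turned on a single library. Poria at 20 µg/mL had 3 calls without vehicle replicate 2 and 2 without its own replicate 2 or 3. Atractylodes at 20 µg/mL had 1 without any 1 of the vehicle replicates 1, 2 and 3, and 0 without its own replicate 2 or 3, and at 100 µg/mL 0 without vehicle replicate 1, 2 or 3 or its own replicate 2 or 3 and 5 without its own replicate 1. At 500 µg/mL it had 1 without its own replicate 1. Licorice at 20 µg/mL had 7 without its own replicate 2. Ginseng had 7 at 100 µg/mL without vehicle replicate 2 or its own replicate 2 or 3, and 7 at 500 µg/mL without its own replicate 2. Angelica at 100 µg/mL had 6 without vehicle replicate 2, 7 without vehicle replicate 3 or its own replicate 1, and 5 without its own replicate 2.

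By gene rather than by extract, ORC1 was called lower than vehicle in 17 of the 18 extract groups, all set against the same 3 vehicle libraries, and 0.0994% of all genes tested were called lower in at least 17. A shift of the vehicle libraries or their set common to many genes cannot be told apart from an extract effect here. All 54 extract libraries, at 25.4 to 33.7 CPM, lay below the 3 vehicle libraries at 34.3, 35.9 and 34.3 CPM and above the wortmannin libraries at 19.8 to 20.6 CPM. The count was 13 without vehicle replicate 2 and 15 without vehicle replicate 1 or 3. POLE was lower in 15 groups, a count that 0.336% of all genes tested reached, with all 54 extract libraries (78.7 to 111.6 CPM) below the vehicle libraries (114.5 to 115.5 CPM). Such a separation of all 54 extract libraries was found for 3 of the 42 genes and 0.429% of all genes tested. DTL followed with 14 groups, UHRF1 and MCM10 with 13 each, and MCM2 with 12, where all 54 extract libraries (106 to 163 CPM) were below vehicle (163.6 to 166.7 CPM). In all, 7 of the 42 genes were called lower in at least 12 groups, against 1.98% of all genes tested. CDT1 was lower in 12 groups but in 4 without vehicle replicate 2, its highest vehicle library, MCM2 in 8 without that library, and LIG1 in 10 but in 4 and 3 without vehicle replicate 2 and 3. At the other end CDC45 was called in none of the 18 groups, RRM2 was lower in none and higher in 3, and TYMS was lower in 1 and higher in 4. Without vehicle replicate 2 or 3 TYMS was higher in 2.

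For 36 of the 42 genes no extract library was as low as the highest wortmannin library. The same held for 52.2% of the 3857 genes called lower with wortmannin. The other 6 genes were PRIM1 (29 of 54 extract libraries), DTL (17), CLSPN (4), POLA2 (3), RPA3 (3) and RFC4 (2). DTL at 500 µg/mL of peony had 43.1, 44.6 and 43.6 CPM, below all 3 wortmannin libraries. At that dose of peony 10 of the 11 licensing genes, all 3 of the checkpoint group and none of the 4 of nucleotide supply were called lower than vehicle. Of all genes tested 9.98% were called lower in that comparison. There CDT1 was not called without peony 500 µg/mL replicate 1 or vehicle replicate 2 (edgeR adjusted p = 0.0643 and 0.121). TIPIN was not called without vehicle replicate 1. With Poria at 500 µg/mL the calls were 10 of 11 in licensing, 3 of 4 in nucleotide supply and 1 of 3 in the checkpoint group. Of all genes tested 23.7% were called lower with that dose of Poria. Differences between role groups or extracts in these counts were not tested.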

How the data were processed

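RNA of 60 HepG2 libraries was sequenced as paired 100-base reads from a directional kit, per the labels' protocols. The submitters' processing notes name FastQC 0.11.9, Trim Galore 0.6.5, STAR 2.7.3a, RSEM 1.3.3 and hg38. The deposited values are RSEM expected counts per gene, not normalized by the authors, and they were rounded to whole numbers (76.05% of values above 0 were whole). The annotation release and the strand setting of the counting are not given in the sources used here, and 21 of the 42 genes overlap a gene on the other strand and 13 one on the same strand. The table holds 270 columns, of which the 60 that match the labels were used and 210 were not.

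Groups came from the labels. All 60 libraries were fitted with 1 mean per group in edgeR 4.0.16 (R 4.3.3; TMM factors 0.926 to 1.03, filterByExpr, 16093 genes tested, 40 residual degrees of freedom). The quasi-likelihood test was adjusted over all genes tested by Benjamini-Hochberg at a threshold of 0.05, and intervals are 95%. A trend is the log2 ratio of 500 over 20 µg/mL, in which the 100 µg/mL libraries carry no weight other than in the spread. CPM are scaled by TMM, except the ALB and AFP ranges and the CPM of 3 counts. Named genes were the largest and smallest changes of each role group with wortmannin, the 3 lowest and 3 highest called trends, the top 2 of each further list, any member against its list's direction, and MCM2, CDC6, CDT1, GMNN, PCNA, RRM2, TYMS and TK1 throughout. Other genes named in the text were picked with their values known. The members and lists were chosen with earlier results of these data known. Alternatives were DESeq2 1.42.0 (its test, or its size factors in edgeR), other filters on low counts, only the groups compared, a replicate block, regression on log dose, and leaving out each library.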

Additional observations from a re-analysis of the deposited data

Results flagged for a closer look

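Trends of different extracts were set against each other, and the difference itself passed edgeR's quasi-likelihood test for many of the 42 genes. Equal trends over the 6 extracts were rejected for 36 genes, where 35.1% of all genes tested were, and the count was 34 to 40 with 1 library left out. The Poria trend differed from the licorice trend for 32 genes, all lower with Poria, and for 27 to 32 with 1 library left out. Of all genes tested 25.8% differed there in either direction. PRIM1 (-0.73), ORC6 (-0.62) and RFC5 (-0.53) were called lower over the Poria doses and higher over the licorice doses. The wortmannin change differed from the Poria trend for 38 genes, and for 35 to 39 with 1 library left out. With 3 libraries a group, single outlying libraries were not tested.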

How the results depend on the processing

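All 42 genes were called with wortmannin under every alternative, and no named gene or count changed direction. With 1 library left out, counts were 42 to 42 with wortmannin, 31 to 34 for the Poria trend, 10 to 13 for licorice, 3 to 8 for peony, 0 to 1 for ginseng and angelica and 0 to 0 for Atractylodes; against vehicle they were 2 to 5 for Poria 20, 36 to 36 for Poria 500, 0 to 4, 0 to 5 and 0 to 1 for Atractylodes 20, 100 and 500, 7 to 13 for licorice 20, 7 to 14 and 7 to 12 for ginseng 100 and 500, and 5 to 12 for angelica 100 µg/mL. The peony trend had 3 genes with no filter and 2 by regression on log dose. With no filter the counts against vehicle were 7 for angelica 100, 7 for ginseng 100, 9 for peony 100, 0 for Atractylodes 100 and 1 for Atractylodes 500 µg/mL. With only the groups compared they were 5 for ginseng 100, 10 for peony 20, 8 for Poria 100, 1 for Poria 20, and 0 for Atractylodes 20 and 100 µg/mL. DESeq2's test gave 1 gene each for the angelica, ginseng and Atractylodes trends, and 7 and 3 for Atractylodes 20 and 100 µg/mL. The causes of these moves were not tested.

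Replicate numbers were tried as pairing. Libraries of the same number and set had a median correlation of deviations of 0.14, against -0.06 for other numbers of the set, and every pair exceeded 0.1 only for peony 20 µg/mL against vehicle and the peony trend. The replicate block over all libraries left these at 18 and 8 genes and the Poria trend at 33. A replicate block with only the groups compared, added after the data were seen, left the peony trend at 6 genes, without MCM7 (edgeR adjusted p = 0.0922) and MCM10 (0.073), and gave 8 for angelica 20, 0 for Atractylodes 20 and 100, 0 for ginseng 100, 6 for Poria 100 and 0 for Poria 20 µg/mL. Of the named values with 1 library left out, 1282 kept their side of the threshold, 47 lost the call and 3, all of ORC6, gained it. The CDC6 rise over the Poria doses was lost with no filter (edgeR adjusted p = 0.321), with only the groups compared (0.178) and by regression (0.296).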
